A study of Mus musculus with 13 samples.

Results

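The genes described here were 10 genes of the ectoplasmic specialization, the adhesion structure that a Sertoli cell builds against its neighbours and against spermatids. They were Nectin2, Nectin3, Afdn, Cdh2, Ctnnb1, Itga6, Itgb1, Vcl, Espn and Eps8, and they were taken by exact name from the 54281 features of a count table of RNA sequencing. All 10 passed the filter on low counts and were among the 14421 genes tested. RNA came from Sertoli cells of adult male C57Bl/6J mice, labelled as genotype Bl6 wt, with 6 control and 7 MSUS males and 1 library for each. MSUS is a paradigm of early postnatal stress in which litters lost contact with their dam for 3 h each day, at times that could not be foreseen, over postnatal days 1 to 14, while the dam was restrained for 20 min or swam in cold water for 5 min. Control mice had no such treatment, both groups carried the same genotype with no transgene, and the comparison asks whether stress in early life is still visible in these genes in the adult cells.

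Cells were sorted from digested testis as diploid, large cells with a strong mitochondrial dye signal, so the samples are enriched for Sertoli cells and are not pure. Libraries were made from 5 ng of RNA and held 12701776 to 18649945 estimated counts. The 11 Sertoli cell markers, such as Sox9, Wt1 and Fshr, were all among the genes tested, and their mean was 8.95 ± 0.08 log2 CPM (SD, n = 6) in control and 8.91 ± 0.08 (SD, n = 7) in MSUS samples. CPM is a count set against the library size, here that of the named genes after TMM scaling. The 4 markers of elongated spermatids, which are protamine and transition protein genes, had a mean of 7.90 ± 0.23 log2 CPM in control and 8.09 ± 0.46 in MSUS samples, and the 6 round spermatid markers one of 3.14 ± 0.16 and 3.19 ± 0.44. The sort should have removed these haploid cells. The study proposes that elongated spermatid transcripts such as Prm2 are left over from spermatids that the Sertoli cells engulfed. The source of this RNA was not tested here. The other lists had means of 5.30 and 5.11 for spermatocytes, 1.45 and 1.44 for spermatogonia, 2.63 and 2.81 for Leydig cells, 1.09 and 1.70 for myoid cells, 2.66 and 2.88 for endothelial cells, 0.34 and 0.25 for macrophages and -0.58 and -0.55 for lymphoid cells. A low mean does not show that every gene of a list was low. Mrc1, the 1 macrophage gene tested, lay between 8.75 and 8.94 log2 CPM in controls. The other 4 genes of the macrophage list were below 1 CPM in all samples. Of the 7 spermatogonia genes 4 were tested. Among them, Uchl1 lay between 7.56 and 7.91 and Dazl between 4.25 and 4.63 log2 CPM in controls. In such bulk samples, fewer cells of a type and less RNA per cell cannot be told apart. Litter and cage were not analysed here, and littermates would make the p-values too small.

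Sertoli cells anchor germ cells through a form of adherens junction that is found in the testis. At the basal ectoplasmic specialization, part of the blood-testis barrier, neighbouring Sertoli cells are joined, and at the apical one a Sertoli cell holds the head of an elongating spermatid. Each is a layer of bundled actin filaments between the plasma membrane and a cistern of endoplasmic reticulum. Nectins and cadherins bridge the cells, the integrin of chains alpha 6 and beta 1 acts at the apical site, where a laminin made by the spermatid is its partner, and afadin, catenins and vinculin tie these receptors to the actin bundles. Several of these proteins, nectin-3 and laminin chains among them, belong to the germ cell side, so RNA for them need not come from the Sertoli cell.

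Promoter sequences are shown for the gene that differed most between the groups by p-value, Itgb1, and for Afdn and Espn, whose levels went together across samples. They were read from the RefSeq table of build GRCm38.p6 as windows of 250 bases before a transcription start. Cdh2 was left out of this search, and 10 windows of 7 of the 10 genes were used. The stretches printed here hold only bases outside the annotated gene and its exons, while the counts of motifs below use the full windows, some of which lie inside a gene. The sequences are written 5′ to 3′ along the strand of the gene, and capitals mark a GC box, searched as GGGCGG on both strands, or a CCAAT box, searched as CCAAT on both strands. Itgb1 lies on the plus strand and its sequence at chr8:128685534-128685653 ends at the base before the start. Afdn lies on the plus strand and its sequence at chr17:13760291-13760390 ends 151 bases before the start used in the table. Espn lies on the minus strand and its sequence at chr4:152152415-152152534 ends 26 bases before the farthest upstream of its 3 starts. This start, at 152152389, lies outside the GENCODE vM21 gene, which begins at 152152371 on this strand. The stretch just after it was not found whole in the GENCODE transcripts of Espn, unlike those after the other starts.
Itgb1: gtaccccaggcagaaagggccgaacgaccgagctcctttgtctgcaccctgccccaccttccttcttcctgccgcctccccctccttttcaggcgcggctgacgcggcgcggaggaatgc
Afdn: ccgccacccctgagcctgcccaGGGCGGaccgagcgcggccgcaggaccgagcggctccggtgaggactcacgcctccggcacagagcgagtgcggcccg
Espn: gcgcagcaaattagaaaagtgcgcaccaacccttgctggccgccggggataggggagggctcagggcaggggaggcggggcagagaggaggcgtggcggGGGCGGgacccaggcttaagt
Afdn and Espn each have 1 GC box in these stretches and Itgb1 has none here, although its full 250 bases hold 1. A GC box was found in 9 of the 10 windows, against 32.7% of the 32851 windows of 250 bases in the whole table. The 10 windows are not independent, since 3 are of Espn and those of Ctnnb1 overlap. The whole table was not matched to these genes for expression level or CG content, so this contrast need not be particular to them. A CCAAT box was found in 3 windows against 33.8%, a TATA box (TATAAA, both strands) in 1 against 12.4%, and the E-box CACGTG, which reads the same on both strands, in 0 against 6.02%. The 250 bases of Afdn hold 51 CG dinucleotides, those of Itgb1 21 and those of the 3 Espn windows 11, 1 and 3, where the median over all windows was 6. These matches describe the letters of the windows and nothing about binding.

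All of these genes except Nectin3 were strongly expressed. Log2 CPM of controls put Espn at the 99.7th percentile of the genes tested and Nectin2 at the 98.6th, with Nectin3 at the 53.5th. The least counted, Nectin3, still had 185 to 419 counts in a library, and the most counted, Espn, 10164 to 21016, so that spread between samples and not counting limited the comparison. Levels of different genes were compared as CPM per kilobase of the longest coding transcript (GENCODE vM21). In controls Espn had 238 ± 25.6 CPM per kilobase (SD, n = 6) and Nectin2 169 ± 18.9, followed by Itgb1 with 82.9 ± 4.70, Vcl with 78.3 ± 3.67 and Ctnnb1 with 66.2 ± 4.6. Cdh2 had 46.0 ± 2.56, Eps8 43.2 ± 2.41, Itga6 40.4 ± 2.66, Afdn 17.0 ± 1.72 and Nectin3 2.55 ± 0.42 CPM per kilobase. The order of neighbours was the same in all 6 controls except for Itgb1 over Vcl and Cdh2 over Eps8, which each held in 5 of 6. In MSUS samples Itgb1 exceeded Vcl in 2 of 7. Espn exceeded Nectin3 93.1-fold per kilobase in controls, and 27.6-fold with the median length of the coding transcripts. That length also moved Ctnnb1 from the 5th to the 2nd place and put Afdn last, while Espn stayed first.

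The groups hardly differed in these genes. Of the 10 members, 1 had an unadjusted p under 0.05 by limma, where 781 of all 14421 genes or 5.42% did. In the higher direction 0 members passed against 3.02% of all genes, and in the lower direction 1 passed against 2.4%. After Benjamini-Hochberg adjustment over all genes 0 members passed, and 0% of all genes did by limma, edgeR or DESeq2, which called 781, 793 and 835 genes at unadjusted p. No member had groups that did not overlap, as 0.132% of all genes had. With library size alone as the scale, the split of the genes at unadjusted p turned from 435 higher and 346 lower to 325 higher and 469 lower. The log2 fold change of MSUS over control was above 0 for 6 members and below 0 for 4, with a median of 0.0069 beside -0.0018 over all genes tested.

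**Figure D1:**
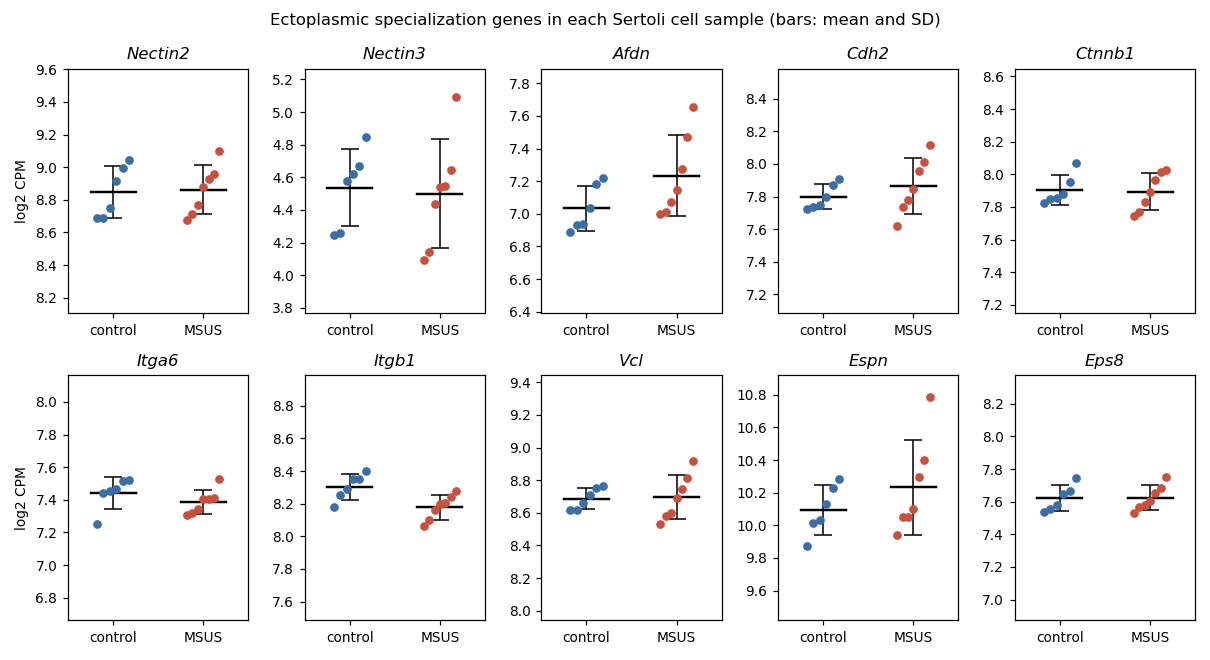
Level of each of the 10 genes in log2 CPM (vertical axes, each spanning the same 1.5 log2 units) in 6 control (blue) and 7 MSUS (red) samples, 1 point per sample, with mean and SD as bars. The groups overlap for every gene, and all 7 MSUS points of Itgb1 lie below its control mean. The highest point is an MSUS sample for every gene except Ctnnb1 and Itgb1.

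**Figure D2:**
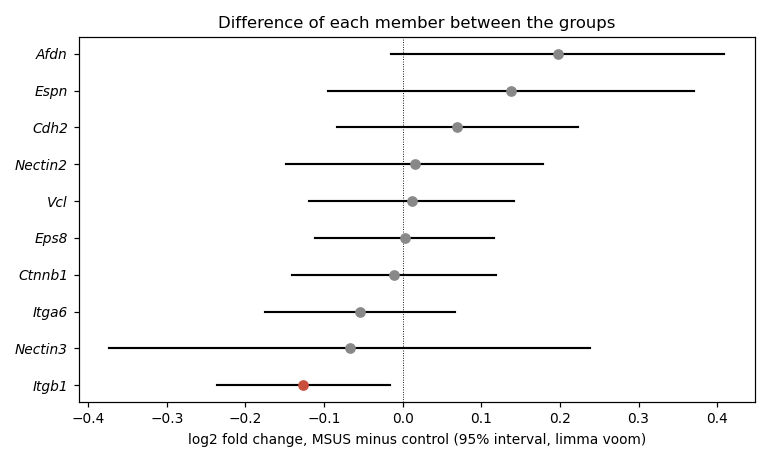
Log2 fold change of MSUS over control (horizontal axis) for each gene, as points with 95% intervals from limma voom, the red point marking an unadjusted p under 0.05. The interval of Itgb1, from -0.24 to -0.02, is the one that leaves out 0.

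Itgb1 encodes integrin beta 1, the common chain of many receptors for extracellular matrix (ENSMUSG00000025809, chromosome 8, 128685654 to 128733200, plus strand, GRCm38). Its lowest, median and highest log2 CPM were 8.18, 8.32 and 8.40 in controls and 8.07, 8.20 and 8.28 in MSUS samples. All 7 MSUS samples lay below the control mean and 3 lay below every control, yet the groups overlapped. The mean was 8.30 ± 0.08 (SD, n = 6) in controls and 8.18 ± 0.08 (SD, n = 7) in MSUS samples. By limma this was a log2 fold change of -0.13 (SE 0.05, 95% interval -0.24 to -0.02), a difference of -8.37%, with an unadjusted p of 0.0272 and an adjusted p of 0.878. An exact permutation of the group labels gave p = 0.0175, two-sided, where 0.000583 is the smallest it can give. The unadjusted p of limma rose to 0.0516 without control 9, 0.0572 without control 12, 0.0670 without control 24 and 0.0617 without MSUS 11, and to 0.0501 with the elongated spermatid score as a covariate.

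Itga6 encodes integrin alpha 6, the chain that pairs with beta 1 to bind laminin (ENSMUSG00000027111, chromosome 2, 71745616 to 71858416, plus strand). Its log2 CPM ran from 7.25 over a median of 7.46 to 7.52 in controls and from 7.30 over 7.40 to 7.52 in MSUS samples. The lowest control, control 22, lay below every other sample. The other 5 controls lay between 7.44 and 7.52, with 6 MSUS samples below them and MSUS 26 just above. The log2 fold change was -0.05 (SE 0.06, 95% interval -0.17 to 0.07, adjusted p = 0.921 by limma). Without control 22 it was -0.09 (unadjusted p = 0.107, adjusted p = 0.867 by limma). Within a sample, the log2 ratio of Itga6 to Itgb1 was -0.86 ± 0.11 (SD, n = 6) in controls and -0.79 ± 0.03 (SD, n = 7) in MSUS samples. It was above the control mean in 7 of 7 MSUS samples, but all of them lay inside the control range of -1.0 to -0.72, and the exact permutation test gave p = 0.128, or 0.379 adjusted over the 4 ratios examined. Without control 14 the unadjusted p was 0.0227.

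Afdn encodes afadin, the actin-binding adaptor of the nectins (ENSMUSG00000068036, chromosome 17, 13760539 to 13906150, plus strand). Its lowest, median and highest log2 CPM were 6.89, 6.99 and 7.22 in controls and 7.0, 7.15 and 7.65 in MSUS samples. Of the MSUS samples 3 lay above every control, MSUS 26 highest with 7.65 and MSUS 5 next with 7.47, and the other 4 lay among the controls. The mean was 7.03 ± 0.14 (SD, n = 6) against 7.23 ± 0.25 (SD, n = 7), a log2 fold change of 0.20 (SE 0.10, 95% interval -0.02 to 0.41) with an unadjusted p of 0.0668 and an adjusted p of 0.878 by limma. The exact permutation test gave p = 0.112. The unadjusted p of limma fell to 0.0489 without control 10, 0.0412 without control 22, 0.0321 without MSUS 6, 0.0445 without MSUS 11 and 0.0273 without MSUS 13. It rose to 0.140 without MSUS 5, 0.125 without control 9, 0.124 without control 12, 0.119 without control 14, 0.0893 without control 24 and 0.0948 without MSUS 23. Without MSUS 26 the log2 fold change was 0.13 (unadjusted p = 0.140, adjusted p = 0.952 by limma). The unadjusted p was 0.0446 by DESeq2, and the lowest adjusted p over the alternatives was 0.446, with the elongated spermatid score as a covariate. Part of the reads were divided with another gene. The estimated count of Afdn was not whole in 12 samples and added up to a whole number with that of Zfp160, within 0.005, in 11 of them. All counts of Zfp160 came to 7.48% of those of Afdn, and with both joined the log2 fold change was 0.21 (unadjusted p = 0.0451, adjusted p = 0.878 by limma).

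Espn encodes espin, which bundles the actin filaments of the ectoplasmic specialization (ENSMUSG00000028943, chromosome 4, 152120331 to 152152371, minus strand). Its lowest, median and highest log2 CPM were 9.87, 10.08 and 10.29 in controls and 9.94, 10.10 and 10.79 in MSUS samples. The medians nearly coincided, and MSUS 26 lay above all others, followed by MSUS 23 with 10.40. The log2 fold change was 0.14 (SE 0.11, 95% interval -0.09 to 0.37, adjusted p = 0.892 by limma), and without MSUS 26 it was 0.05 (adjusted p = 0.974 by limma). Eps8, which caps and bundles actin filaments (ENSMUSG00000015766, chromosome 6, 137477245 to 137654876, minus strand), ran from 7.54 over 7.61 to 7.74 log2 CPM in controls and from 7.53 over 7.60 to 7.75 in MSUS samples. Its samples covered the same range in both groups, and the log2 fold change was 0.0024 (SE 0.05, 95% interval -0.11 to 0.12, adjusted p = 0.995 by limma). The log2 ratio of Espn to Eps8 was 2.47 ± 0.15 (SD, n = 6) and 2.61 ± 0.26 (SD, n = 7), with p = 0.284 by exact permutation.

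Nectin2 encodes the nectin of the Sertoli cell (ENSMUSG00000062300, chromosome 7, 19716644 to 19750483, minus strand). Its log2 CPM ran from 8.69 over 8.83 to 9.05 in controls and from 8.68 over 8.88 to 9.10 in MSUS samples, so that the groups covered nearly the same range. The log2 fold change was 0.02 (SE 0.08, 95% interval -0.15 to 0.18, adjusted p = 0.980 by limma). Nectin3 encodes its partner on the spermatid (ENSMUSG00000022656, chromosome 16, 46387706 to 46498525, minus strand) and ran from 4.25 over 4.6 to 4.84 in controls and from 4.10 over 4.54 to 5.09 in MSUS samples. Both the highest sample, MSUS 11, and the lowest, MSUS 26, were MSUS samples. Its log2 fold change was -0.07 with the widest interval of the 10 genes, -0.37 to 0.24 (SE 0.15, adjusted p = 0.956 by limma). The log2 ratio of Nectin2 to Nectin3 was 4.31 ± 0.31 (SD, n = 6) in controls and 4.36 ± 0.43 (SD, n = 7) in MSUS samples, with p = 0.814 by exact permutation.

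Cdh2 encodes N-cadherin, the cadherin of Sertoli cell junctions. Its log2 CPM ran from 7.72 over 7.77 to 7.91 in controls and from 7.62 over 7.85 to 8.12 in MSUS samples, which were spread to both sides of the controls. The log2 fold change was 0.07 (SE 0.07, 95% interval -0.08 to 0.22, adjusted p = 0.919 by limma). It was 0.03 without MSUS 1 and 0.11 without MSUS 13 (adjusted p = 0.954 and 0.744 by limma). Ctnnb1 encodes beta-catenin, which binds the tail of N-cadherin (ENSMUSG00000006932, chromosome 9, 120929216 to 120960507, plus strand), and ran from 7.82 over 7.87 to 8.07 in controls and from 7.75 over 7.89 to 8.03 in MSUS samples. The groups overlapped almost fully, with a log2 fold change of -0.01 (SE 0.06, 95% interval -0.14 to 0.12, adjusted p = 0.982 by limma). The log2 ratio of Cdh2 to Ctnnb1 was -0.11 ± 0.09 (SD, n = 6) and -0.03 ± 0.13 (SD, n = 7), with p = 0.231 by exact permutation. Vcl encodes vinculin, which links catenins and talins to actin (ENSMUSG00000021823, chromosome 14, 20929398 to 21033676, plus strand). It ran from 8.62 over 8.68 to 8.77 in controls and from 8.53 over 8.69 to 8.92 in MSUS samples, where the spread was wider on both sides. Its log2 fold change was 0.01 (SE 0.06, 95% interval -0.12 to 0.14, adjusted p = 0.981 by limma). Counts of Vcl that were not whole, in 6 samples, became whole once joined to the counts of Ap3m1 in all 6.

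Spread between samples of a group differed among the 10 genes. Their median SD of log2 CPM was 0.0957 in controls, beside 0.198 over all genes tested, and 0.144 in MSUS samples, beside 0.239. In controls Vcl had the smallest SD of the 10, at the 3.48th percentile of all genes, and in MSUS samples Itga6 and Itgb1 were at the 2.72nd and 2.73rd. Nectin3 had the largest SD in both groups, at the 59.3rd percentile in controls and the 65.6th in MSUS samples, where Espn was at the 59.7th and Afdn at the 52.1st. Most genes tested have lower levels than these, and the SDs were not matched for level.

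Some of the genes varied together from sample to sample. Of the 45 pairs, 3 had an adjusted p under 0.05 for Pearson's r over the 13 samples, by permutation of 100000 draws. The closest pair was Afdn and Espn, with r = 0.89 and Spearman's rho = 0.84 (permutation p = 0.00014 for r, 0.0063 adjusted over the pairs, and 0.00058 for rho, 0.0261 adjusted). The relation was also present within controls (r = 0.94) and within MSUS samples (r = 0.87), and r was 0.78 without MSUS 5 and MSUS 26. Pairs with genes outside the 10 were not ranked, so the closeness of this pair has no such baseline. Myo7a, a motor gene outside the 10, was like Afdn highest in MSUS 26 and MSUS 5, with 10.64 and 10.42 log2 CPM. Vcl and Eps8 had r = 0.78 and rho = 0.81 (permutation p = 0.0015 and 0.00129, adjusted p = 0.0310 and 0.0290), with 0.44 in controls, 0.99 in MSUS samples and 0.61 without MSUS 13 and MSUS 26. Cdh2 and Vcl had r = 0.78 and rho = 0.76 (permutation p = 0.00207 and 0.00336, adjusted p = 0.0310 and 0.0443), with 0.16 in controls, 0.90 in MSUS samples and 0.63 without MSUS 1 and MSUS 26. Of all pairs 12 had a negative r, the lowest being -0.64 for Nectin3 and Vcl, and the median r was 0.38. Whether the correlations differ between the groups was not tested.

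**Figure D3:**
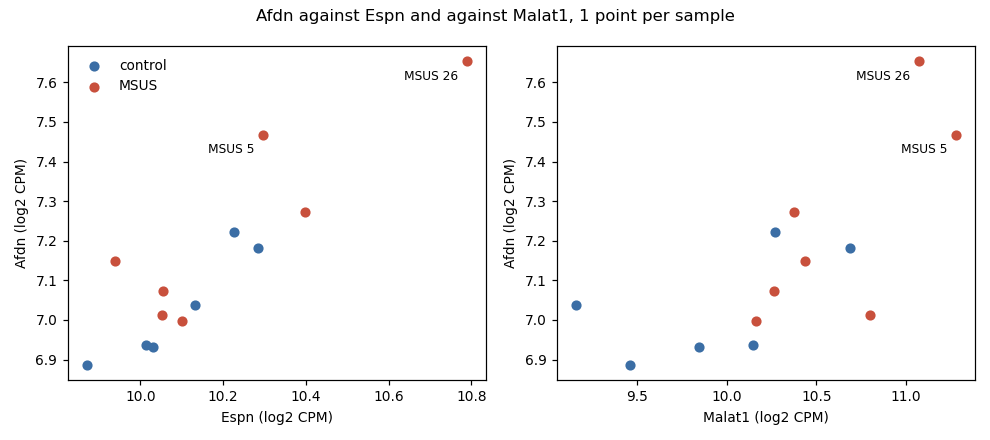
Afdn in log2 CPM (vertical axes) against Espn (left) and against Malat1 (right), also in log2 CPM, in 6 control (blue) and 7 MSUS (red) samples, 1 point per sample. Afdn and Espn lie along one line in both groups with r = 0.89, and MSUS 5 and MSUS 26 are at the upper end of Afdn in both plots.

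The long nuclear RNA Malat1, which is not one of the 10, moved with the same samples. It lay between 9.16 and 10.69 log2 CPM in controls and between 10.16 and 11.28 with MSUS, and MSUS 5 and MSUS 26 were the highest. Its log2 fold change was 0.70 (SE 0.22, unadjusted p = 0.00505, adjusted p = 0.878 by limma). Across the 13 samples Afdn and Malat1 had r = 0.73 and rho = 0.76 (permutation p = 0.00532 and 0.00388, adjusted over the 10 genes 0.0532 and 0.0388), with 0.59 in controls, 0.75 in MSUS samples and 0.75 without control 24 and MSUS 5. Espn and Malat1 had r = 0.57 and rho = 0.54 (permutation p = 0.0460 and 0.0580, adjusted p = 0.230 and 0.290), with 0.60 in controls, 0.53 in MSUS samples and 0.70 without those samples. With the Malat1 level as a covariate, an alternative added after the values were seen, the log2 fold change of Afdn was 0.01, that of Espn -0.04 and that of Itgb1 -0.11, each with an adjusted p of 0.999 by limma. The unadjusted p was 0.922 for Afdn, 0.775 for Espn and 0.114 for Itgb1. Malat1 itself had a mean of 10.63 log2 CPM in MSUS samples against 9.93 in controls. This fit therefore cannot tell the part of Malat1 apart from that of the group. Over all genes tested 401 passed at unadjusted p under 0.05 in this fit, where 781 did in the main fit.

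The levels were also set against the markers of Sertoli cells, round spermatids and elongated spermatids, which made 30 relations, and 0 of them had an adjusted p under 0.05 for r or rho. The smallest p for r was that of Nectin2 with the elongated spermatid markers, with r = -0.77 and rho = -0.75 (permutation p = 0.00222 and 0.00437, adjusted p = 0.0666 and 0.0655). It had the same sign in controls (r = -0.67), in MSUS samples (r = -0.94) and without MSUS 11 and MSUS 26 (r = -0.64). The smallest p for rho was that of Eps8 with the round spermatid markers, with r = -0.61 and rho = -0.76 (permutation p = 0.0210 and 0.0035, adjusted p = 0.137 and 0.0655), and r was -0.74 in controls, -0.65 in MSUS samples and -0.76 without MSUS 1 and MSUS 11. Nectin3 and the round spermatid markers had r = 0.60 but rho = 0.34 (permutation p = 0.0294 and 0.261, adjusted p = 0.147 and 0.461). This relation rested on MSUS 11, which had the highest value of both, and on MSUS 1, since r was 0.02 without these samples, and r was -0.55 in controls and 0.88 in MSUS samples. Afdn and Espn had r of -0.93 and -0.95 with the elongated spermatid markers in MSUS samples and of -0.29 and 0.02 in controls. Pooled over the 13 samples, r was -0.57 for Afdn (rho = -0.38, permutation p = 0.0428 and 0.202, adjusted p = 0.160 and 0.432) and -0.63 for Espn (rho = -0.40, permutation p = 0.0210 and 0.182, adjusted p = 0.137 and 0.432), and without MSUS 11 and MSUS 26 it was -0.27 and -0.30, so that both relations rested on these samples. With the elongated spermatid score as a covariate in limma, the log2 fold change was 0.28 for Afdn (unadjusted p = 0.00101, adjusted p = 0.446) and 0.23 for Espn (unadjusted p = 0.00859, adjusted p = 0.486). This fit takes a common slope for both groups, although r within the groups was unlike for both genes. Over all genes tested it called 1203 at unadjusted p under 0.05, where the main fit called 781. Itga6 and the elongated spermatid markers had r = 0.96 in controls, where control 22 was lowest in both, and r = -0.88 in MSUS samples, with a pooled r of -0.27 (rho = -0.29, permutation p = 0.367 and 0.343, adjusted p = 0.477 and 0.490). The scores come from the same libraries as the genes, the difference of these relations between the groups was not tested, and the part of spermatid RNA in the levels was not tested.

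**Figure D4:**
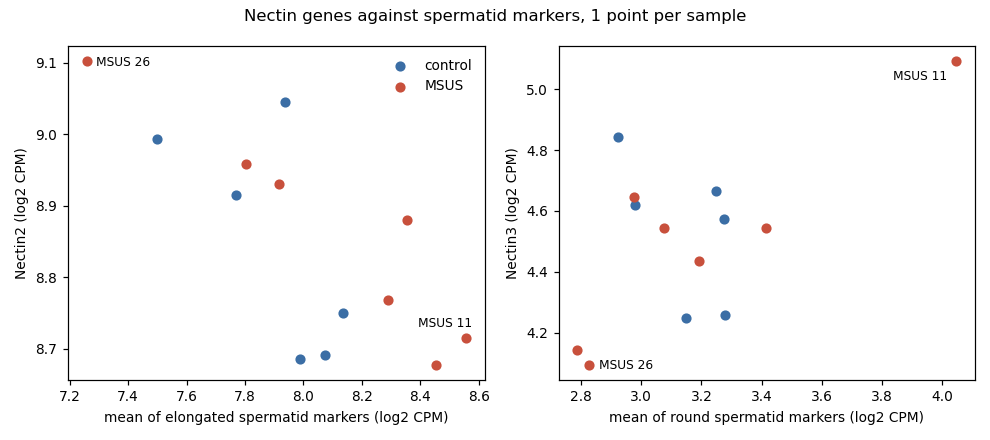
Nectin2 against the mean of the elongated spermatid markers (left) and Nectin3 against the mean of the round spermatid markers (right), all in log2 CPM, in 6 control (blue) and 7 MSUS (red) samples, 1 point per sample. Nectin2 is lower where the marker mean is higher (r = -0.77), and on the right MSUS 11 stands apart from all other samples.

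The other genes of the junction were examined as 4 lists with 80 genes, of which 72 were tested. At unadjusted p under 0.05 by limma, 5 were higher and 1 was lower in MSUS samples, or 8.33% of those tested against 5.42% of all genes, and 0 passed after adjustment. With library size alone as the scale 3 genes were higher (Plekha7, Myo7a and Scrib) and 3 lower (Cttn among them), while Tln2 and Ptk2, called with TMM, had adjusted p = 0.866 and unadjusted p of 0.0674 and 0.0908. With the elongated spermatid score as a covariate, added for the lists after values were seen, 8 were higher and 2 lower. Over all genes this fit called 783 higher and 420 lower, where the main fit called 435 and 346. Of the nectin, cadherin and catenin list 0 of 13 genes passed in either direction, and 9 had a log2 fold change above 0. Of those below 0 the smallest p belonged to Cadm1, a cell adhesion molecule by which germ cells bind Sertoli cells (log2 fold change -0.07, SE 0.05, unadjusted p = 0.155, adjusted p = 0.878 by limma). Of those above 0 it belonged to Jup, which encodes plakoglobin (log2 fold change 0.29, SE 0.20, unadjusted p = 0.161, adjusted p = 0.878 by limma).

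Of the integrin, laminin and kinase list 2 of 23 genes passed, both higher, and 20 of 23 had a log2 fold change above 0, where 49.5% of all genes tested had one. The median was 0.09 beside -0.0018 over all genes. The 20 include genes of low level, down to -0.42 log2 CPM in controls, and log2 fold changes as small as 0.01. Genes of a list can vary together across samples, so the 20 are not independent observations, and no test of the list was run. Tln2, which encodes 1 of the talins that link integrins to actin and vinculin, lay between 5.37 and 5.82 log2 CPM in controls and between 5.55 and 6.16 with MSUS. The log2 fold change of Tln2 was 0.22 (SE 0.10, unadjusted p = 0.0372, adjusted p = 0.878 by limma). Tln1, the other talin gene of the list, had a mean of 7.41 log2 CPM in controls and did not pass. Its log2 fold change was 0.06 (SE 0.09, unadjusted p = 0.535, adjusted p = 0.943 by limma). Ptk2, the focal adhesion kinase, lay between 5.60 and 6.03 in controls and between 5.83 and 6.24 with MSUS, and 5 of 7 lay above every control. For Ptk2 the log2 fold change was 0.18 (SE 0.08, unadjusted p = 0.0389, adjusted p = 0.878 by limma). Zyx, which encodes zyxin of focal adhesions, had the smallest p of the genes below 0 (log2 fold change -0.07, SE 0.06, unadjusted p = 0.232, adjusted p = 0.893 by limma).

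Of the actin regulators 2 of 24 genes were higher and 1 was lower at unadjusted p, and of all 24 the log2 fold change was above 0 in 7 and below 0 in 17. Plekha7, whose protein binds p120-catenin at adherens junctions, lay between 5.99 and 6.44 log2 CPM in controls and between 6.23 and 6.67 with MSUS, and 5 of 7 lay above every control. For Plekha7 the log2 fold change was 0.27 (SE 0.08, unadjusted p = 0.00462, adjusted p = 0.878 by limma). Myo7a, which encodes the motor myosin VIIa of Sertoli cells, lay between 9.85 and 10.31 in controls and between 10.09 and 10.64 with MSUS (log2 fold change 0.28, SE 0.09, unadjusted p = 0.00548, adjusted p = 0.878 by limma). Cttn, which encodes cortactin, an activator of branched actin at the tubulobulbar complexes that take the junction apart, lay between 8.53 and 8.71 in controls and between 8.36 and 8.62 with MSUS, and 4 of 7 lay below every control. Its log2 fold change was -0.13 (SE 0.05, unadjusted p = 0.0240, adjusted p = 0.878 by limma). Of the polarity genes 6 were above 0 and 6 below, and 1 of 12 passed, Scrib, which encodes the scaffold scribble, with 7.95 to 8.19 in controls, 8.02 to 8.40 in MSUS samples and a log2 fold change of 0.19 (SE 0.06, unadjusted p = 0.0101, adjusted p = 0.878 by limma). Pard3 had the smallest p of those below 0 (log2 fold change -0.74, SE 0.47, unadjusted p = 0.132, adjusted p = 0.878 by limma) at a level of 0.49 log2 CPM in controls. With the Malat1 level as a covariate 2 genes of the 4 lists passed at unadjusted p, Plekha7 among them (unadjusted p = 0.0401, adjusted p = 0.999 by limma). Over all 14421 genes tested 401 passed in that fit, where 781 did in the main fit. Ptk2, Myo7a and Tln1 were named after their values were seen.

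**Figure D5:**
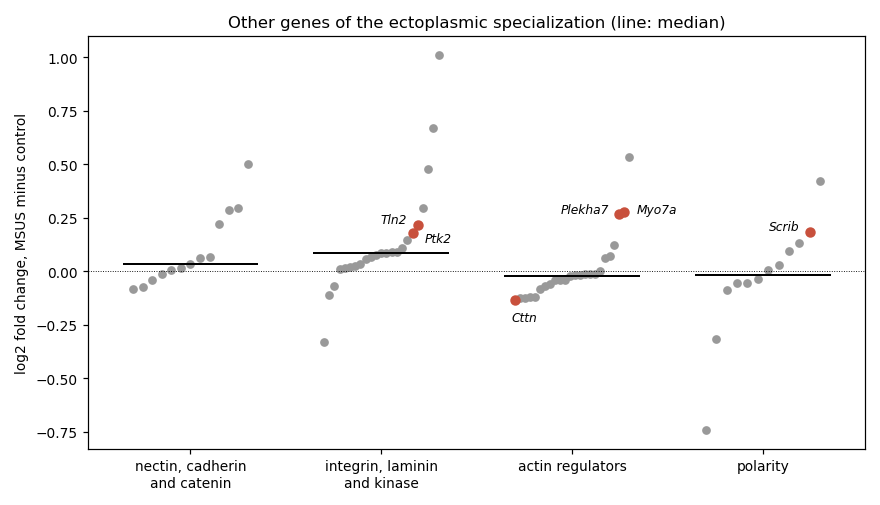
Log2 fold change of MSUS over control (vertical axis) of the 72 tested genes of 4 lists, 1 point per gene in order of size, with a line at the median of each list and red points for an unadjusted p under 0.05 by limma. The median lies at 0.09 for the integrin, laminin and kinase list and nearer to 0 for the other lists, and grey points farthest from 0 are genes of low level.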

How the data were processed

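RNA of sorted Sertoli cells from 6 control and 7 MSUS males was sequenced with a stranded total RNA kit. Per the labels, reads were trimmed with Trim Galore 0.6.5 and assigned with Salmon 1.1.0. The study's methods give GENCODE vM23 as the index, and the authors deposited expected counts (Salmon's estimated counts) per gene, without normalization. How transcripts were summed to genes is not given in the sources used here, so isoforms were not separated, and reads that fit several genes were divided between them by the estimate. Of 54281 features, 27170 had no gene name, held 20.7% to 26.7% of the counts of a sample, and were left out.

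Estimated counts were rounded. Groups came from the sample labels. Groups were compared by voom of limma 3.58.1 after TMM scaling (edgeR 4.0.16, R 4.3.3) in genes that passed filterByExpr, since the study's methods name TMM and voom. Benjamini-Hochberg adjustment over all of these genes was added here. Alternatives were DESeq2 1.42.0, the quasi-likelihood test of edgeR, sample weights, other scalings and filters, covariates and leaving out each sample. Malat1 as covariate, the joining of shared reads and the exact permutation of single genes were added after values were seen. Log2 CPM used a prior count of 2. The fits were tested on simulated counts. The members and lists were chosen with earlier results of these data known. All members are named, and of each list the gene with the smallest p in each direction. Coordinates and lengths follow GENCODE vM21 (GRCm38), which precedes the authors' release on the same build. One of the list genes was found under its older symbol, Mpp5. Total counts limit precision less than the spread between samples. With 1 library for each mouse, differences between mice and between preparations cannot be told apart.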

Additional observations from a re-analysis of the deposited data

Results flagged for a closer look

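Itga6 in control 22 was at 7.25 log2 CPM, while the other 5 controls lay between 7.44 and 7.52. This gap is larger than Dixon's test allows at the 95% level in a group of 6. Over the 10 genes in both groups, 20 groups were examined and 1 was picked out, and chance gives about 1.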

How the results depend on the processing

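The sample labels give no pairs of control and MSUS mice, so no paired analysis was run. No member passed at adjusted p under 0.05 under any of the 25 alternatives run. The count of members at unadjusted p under 0.05, which was 1, was 2 by DESeq2, with the round spermatid score, with the elongated spermatid score and with shared reads joined, and 0 with Malat1 as a covariate, and it ran from 0 to 2 as each sample was left out. Afdn was the added gene in these fits, with Itgb1 lost under the elongated spermatid score, where Espn passed. The count in the 4 lists, which was 6, was 2 with Malat1 as a covariate, 10 with the elongated spermatid score and 4 to 8 as each sample was left out. Over all genes tested, 781 passed at unadjusted p under 0.05 in the main fit, 835 by DESeq2 and 401 with Malat1 as a covariate. With the round and elongated spermatid scores 1115 and 1203 genes passed, and as each sample was left out 534 to 1121 did. With these covariates the counts over all genes thus moved in the same direction as those of members and lists. Itgb1, Itga6, Cdh2 and Afdn kept the sign of their log2 fold change in all alternatives run, Itgb1 between -0.15 and -0.11 and Afdn between 0.01 and 0.28. The other 6 changed sign under at least 1 alternative. With library size alone Nectin2 was at -0.00015, Vcl at -0.0041 and Eps8 at -0.013. With sample weights Vcl was at -0.0072 and Eps8 at -0.013. With Malat1 as a covariate Espn was at -0.036, Vcl at -0.053 and Eps8 at -0.037. Eps8 was at -0.0032 with no filter and at -0.0045 with unnamed features kept, and Ctnnb1 at 0.019 with the elongated spermatid score. As each sample was left out, Espn ran from 0.048 to 0.19, Cdh2 from 0.028 to 0.11, Itga6 from -0.093 to -0.038, Nectin2 from -0.020 to 0.054, Nectin3 from -0.17 to 0.0080, Ctnnb1 from -0.030 to 0.021, Vcl from -0.020 to 0.042 and Eps8 from -0.014 to 0.027. The difference in the log2 ratio of Nectin2 to Nectin3 then ran from -0.057 to 0.17, and that of Itga6 to Itgb1 from 0.044 to 0.10. With library size alone the relation of Nectin2 with the elongated spermatid markers had r = -0.79 over 13 samples (adjusted permutation p = 0.0432). The cause of these changes was not tested.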
